A study of Mus musculus with 622 samples.

Results

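Pancreatic beta cells of wild-type C57BL/6 mice were divided by whether they held transcripts of Lcn2, the gene of lipocalin 2, and all other genes were set side by side on the 2 sides. The study captured single islet cells on a Fluidigm C1 microfluidic chip, amplified their cDNA with the SMARTer chemistry and sequenced 1 Nextera XT library per cell, with no treatment and no genotype other than wild type. The deposited table gives RPKM, reads scaled to the length of the gene and to all mapped reads of the cell, for 622 cells. The labels name no animal, age, islet preparation or chip, so all cells count here as 1 sample. A difference between the sides is therefore a description of these cells, with no p-value and no replicate check.

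The cells were chosen by measured values. Of the 622 columns, 359 give values to full precision and 263 give values rounded to 4 decimals, and the comparison used the former. A cell was eligible as a beta cell when at least 1000 genes reached 1 RPKM, when Ins1 and Ins2 made up at least 99% of the summed RPKM of Ins1, Ins2, Gcg, Sst and Ppy, and when Tyrobp, a leukocyte gene, was under 100 RPKM. That left 201 cells. Lcn2 was at 1 RPKM or more in 55 of them, the Lcn2-positive side, and at 0 in 144, the Lcn2-negative side. The other 2 cells, at 0.826 and 0.830 RPKM, lay between the sides and were left out, and the lowest Lcn2-positive cells had 1.01 and 1.02 RPKM. The insulin share was 99.0% in the cell just inside that limit and 98.8% in the cell just outside it. The number of detected genes was 1724 just inside its limit and 964 just outside, and the highest Tyrobp value among eligible cells was 3.67 RPKM.

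Lipocalin 2 is a small secreted protein that binds bacterial siderophores and so keeps iron from microbes. It is stored in neutrophil granules and is made by epithelial cells and hepatocytes as part of the acute-phase response, where NF-kB, C/EBP factors and STAT3 act on its gene. Serum amyloid A proteins, complement factor B and orosomucoid belong to the same response, and beta cells are known to make several of these proteins when exposed to inflammatory cytokines.

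Insulin genes and Tyrobp chose the cells, so their levels only describe them. Ins2, the main mouse insulin gene, had a median of 242668 RPKM in the Lcn2-positive cells, between 23559 and 576119 RPKM. In the Lcn2-negative cells the median was 258523 RPKM, between 15230 and 505813 RPKM. Iapp, which encodes the islet amyloid peptide stored with insulin, was not used by the rule and had medians of 63518 and 61724 RPKM. The ranges of both genes overlapped. Tyrobp was at 0 in all 55 Lcn2-positive cells. Median depth, from whole read numbers recovered from the RPKM values, was 720187 mapped reads on the Lcn2-positive and 909861 on the Lcn2-negative side. The median number of genes at 1 RPKM or more was 5731 and 5594.5. Mitochondrial genes took a median of 11.0% and 9.90% of the summed RPKM.

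Lcn2 lies on chromosome 2 of the GRCm38.p6 mouse genome, from base 32384637 to base 32387739 on the minus strand, and RefSeq annotates it as a protein-coding gene that no other annotated gene overlaps. The 250 bases before its annotated start are shown because this is where the factors of the acute-phase response are known to act. The same stretch of Saa3, the serum amyloid gene whose level stood highest beside that of Lcn2, is set under it. Both come from RefSeq, chr2:32387740-32387989 and chr7:46715677-46715926, each on the minus strand. RefSeq gives Saa3 a longer gene span, from 46711998 to 46719615, so its window lies within that span. Capitals mark matches to the patterns searched on both strands, which were GGG, any 5 bases and CC for NF-kB, TTGC, any 2 bases and AA for C/EBP, and TTC, any 3 bases and GAA for STAT factors.
Lcn2: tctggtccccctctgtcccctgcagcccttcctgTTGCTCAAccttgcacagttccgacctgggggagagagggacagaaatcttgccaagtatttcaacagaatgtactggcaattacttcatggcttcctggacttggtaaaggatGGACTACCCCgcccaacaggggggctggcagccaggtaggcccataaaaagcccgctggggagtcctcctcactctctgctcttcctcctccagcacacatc
Saa3: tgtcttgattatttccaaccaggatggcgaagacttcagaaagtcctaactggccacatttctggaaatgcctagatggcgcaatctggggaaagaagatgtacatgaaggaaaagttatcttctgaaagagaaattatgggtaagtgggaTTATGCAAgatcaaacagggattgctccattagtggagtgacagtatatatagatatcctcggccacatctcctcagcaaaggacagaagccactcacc

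In the Lcn2 window the C/EBP pattern matched from 216 to 209 bases before the start, and the NF-kB pattern from 102 to 93 bases before it. The Saa3 window held 1 C/EBP match, from 99 to 92 bases before the start. Neither window held the STAT pattern. Of 27025 promoter windows of the same length, 9.55% held the C/EBP pattern, 45.4% the NF-kB pattern and 7.18% the STAT pattern. A match describes letters, not a bound factor. Among the promoters matched for the 12 genes with the highest ratios (9 matched), 5 held the NF-kB pattern and none the C/EBP pattern, and among those of the 12 lowest (11 matched), 6 held the NF-kB pattern and 1 the C/EBP pattern.

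Lcn2 was detected in 27.4% of the eligible beta cells (55 of 201, exact 95% binomial interval 21.3 to 34.1%, which covers counting error only). Most of these cells held very little of it. The lowest value was 1.01 RPKM, the median 5.54 RPKM and the upper quartile 91.7 RPKM. By value, 35 cells lay at 1 to 10 RPKM, 7 at 10 to 100 RPKM and 13 at 100 RPKM or more. In recovered reads, 16 cells rested on a single Lcn2 read, 31 on 1 to 3 reads, 8 on 4 to 20 reads and 16 on more than 20 reads. At the other end stood cells 335, 158 and 69, numbered as in the labels, with 53750, 36765 and 9862 RPKM from 35511, 33565 and 6476 reads. These 3 cells carried 94.7% of all Lcn2 RPKM on the Lcn2-positive side. The mean of that side was 1927 RPKM with them and 108 RPKM without them. In cell 335, Lcn2 alone made up 6.64% of the summed RPKM.

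**Figure D1:**
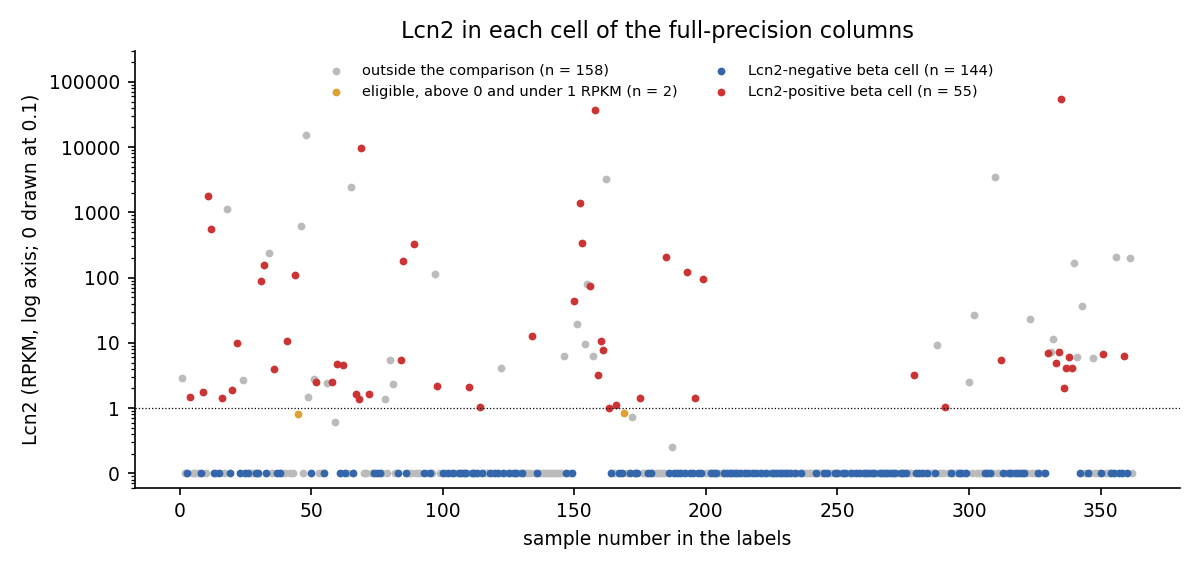
Lcn2 (RPKM, log axis, 0 drawn at 0.1) against the sample number of the labels, 1 point per cell of the 359 full-precision columns. Lcn2-positive cells (red) are mostly under 10 RPKM, 4 cells of all kinds stand above 5000 RPKM, and a long stretch of numbers from 201 to 280 holds 1 Lcn2-positive cell.

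Lcn2 was detected at similar shares in cells outside the comparison. Among all 158 full-precision cells that were not eligible, 34 held it at 1 RPKM or more, 21.5% (exact 95% interval 15.4 to 28.8%), and the intervals of the 2 shares overlapped. Among cells in which no hormone reached 90% of the hormone RPKM, the share was 19 of 83, or 22.9% (14.4 to 33.4%). It was 3 of 17 glucagon-led cells, 2 of 6 led by pancreatic polypeptide, 1 of 5 led by somatostatin and 1 of 6 cells with Tyrobp at 100 RPKM or more. The median depth was 826615 mapped reads in eligible beta cells and 781189 in the cells outside. With every cell thinned to 250000 reads, the expected share of cells with at least 1 Lcn2 read was 19.5% of eligible beta cells and 18.4% of the others, leaving out 3 and 7 shallower cells.

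In the rounded columns Lcn2 was listed at 0 in all 263 cells, and so in all 151 that met the same beta cell rule. Such counts allow up to 1.14% and 1.99% of cells, if Lcn2 was counted in these columns as in the others. Whether these columns were processed in the same way is not recorded. Of 9218 genes that reached 1 RPKM in 20% or more of the full-precision cells, Lcn2 was the only gene at 0 in every rounded column. It remained the only one among 11797 genes at a limit of 10%. The comparison could not be repeated in those cells for this reason.

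Lcn2-positive cells were unevenly spread over the sample numbers, whose meaning the labels do not give. In runs of 40 numbers, Lcn2-positive cells made up 10 of 23 eligible cells, then 10 of 19, 6 of 23, 8 of 17, 8 of 26, 0 of 26, 1 of 27, 2 of 19 and 10 of 21. With 0 of 26, a share of 11.5% could have been missed. The 2 sides therefore differ in sample number as well, which the gene comparison does not separate. The median depth was highest, at 1079800 to 1292370 mapped reads, in runs 201 to 240 and 241 to 280 and in run 161 to 200, at 1101600. Cells near a cell with very high Lcn2 more often held a trace of it, a pattern picked after the values were seen. The 4 full-precision cells above 5000 RPKM were cells 335, 158 and 69 and cell 48, which had 15244 RPKM and was not eligible, with an insulin share of 89.7%. Any Lcn2 read was found in 10 of the 10 cells within 5 numbers of cell 335 and in 10 of 10 around cell 158. It was found in 6 of 10 around cell 48 and in 4 of 10 around cell 69. Within 10 numbers of any of the 4, 43 of 79 cells held it (54.4%), against 47 of 276 cells elsewhere (17.0%). Of the 55 Lcn2-positive cells, 25 lay within 10 numbers of these cells and 3 were among them.

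Some columns of the table were nearly the same, and they differed in Lcn2. Over all pairs of full-precision columns the median Pearson correlation of log2(RPKM + 1) was 0.62. In 5 pairs it was 0.98 (163 and 171), 0.98 (161 and 169), 0.95 (162 and 170), 0.92 (164 and 173) and 0.89 (167 and 172), and the next pair reached 0.86. Cell 163 was Lcn2-positive on 1 read, at 1.01 RPKM, and cell 171 was Lcn2-negative. Cell 161 was Lcn2-positive at 7.80 RPKM, and cell 169 lay between the sides at 0.830 RPKM. Read numbers of the closest pair gave a chi-square of 1.53 per gene, above read sampling alone. Whether the columns of a pair come from the same cell was not tested, and all columns were kept. Leaving out all 10 columns gave 302 and 332 genes at 2-fold, close to the counts below.

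The pair of cells 162 and 170, neither of them eligible, differed most clearly. Of 1214 genes at 50 RPKM or more in cell 162, 8 were at 0 in cell 170, and none of the 1099 such genes of cell 170 was at 0 in cell 162. The 8 genes were Lcn2, Saa3, Saa2, Saa1, Cfb, Lrg1, Serping1 and Cd9. Lcn2 was at 3269 RPKM, from 2622 reads, in cell 162, and at 0 in cell 170. Saa3 was at 2321 RPKM in cell 162, Saa2 at 441, Saa1 at 263 and Cfb at 248 RPKM. The same genes were high in cell 158, 4 numbers away, and cell 162 held 8.89% of its Lcn2, 8.68% of its Saa3, 9.05% of its Saa2, 8.73% of its Saa1 and 8.35% of its Cfb. For Lrg1, Serping1 and Cd9 the figures were 13.0%, 8.92% and 11.7%. So 6 of the 8 genes stood at between 8.35% and 9.05% of their level in cell 158. Why the columns share these proportions was not tested.

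**Figure D2:**
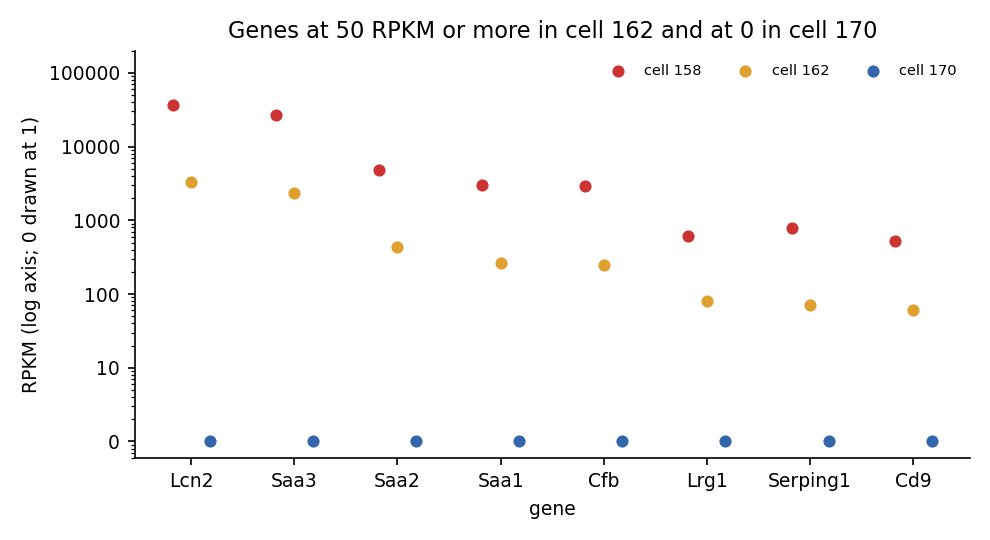
RPKM (log axis, 0 drawn at 1) of the 8 genes at 50 RPKM or more in cell 162 and at 0 in the nearly identical cell 170, with cell 158 beside them. Cell 162 follows cell 158 at a near constant distance, 8.35 to 13.0% of its level, and cell 170 is at 0 for every gene.

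Across all genes the 2 sides were close. Of 7433 genes with a mean of at least 5 RPKM on either side, 283 had a mean at least 2-fold higher in the Lcn2-positive cells, 3.81%, and 314 at least 2-fold lower, 4.22%. These ratios are on the scale log2(mean RPKM + 1), which understates differences of low genes. The median log2 ratio was 0.02, with quartiles of -0.31 and 0.34. Single cells set many of the higher genes: in 87 of the 283, 1 cell held at least 50% of the side's summed RPKM, as against 27 of the 314 lower genes on the Lcn2-negative side. When the highest cell of each side was left out for each gene, 116 of the 283 and 298 of the 314 stayed at 2-fold. A single cell weighs more in a mean of 55 cells than in a mean of 144, which bears on both of these comparisons. With the highest cells left out, the median log2 ratio was -0.10 over the 6617 genes then tested. When the mean of log2(RPKM + 1) was used instead, 6 of the 283 and 7 of the 314 stayed.

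**Figure D3:**
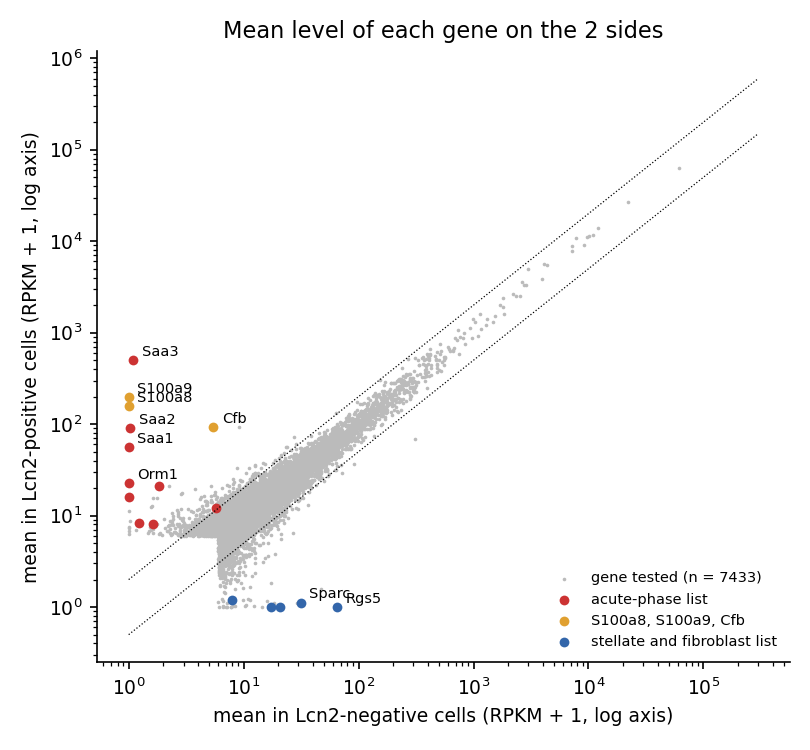
Mean RPKM + 1 (log axes) of the 7433 genes tested in the 144 Lcn2-negative and the 55 Lcn2-positive cells, with dotted lines at 2-fold. Most genes lie between the lines, and the acute-phase genes (red) and S100a8, S100a9 and Cfb (orange) stand far above them on means that 1 or 2 cells supply.

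The acute-phase secreted proteins stood out. Of 34 genes on the list apart from Lcn2, 9 passed the filter on low values, and all 9 were at least 2-fold higher on the Lcn2-positive side, where 3.81% of all genes were. A gene of this kind passes the filter only through the cells where it is high, so this count says little of the list. Their median log2 ratio was 3.99, or 3.74 with Lrg1 at the bound that 3 reads over the Lcn2-negative side give and Orm1 left out. Saa3, which encodes the serum amyloid A form made outside the liver, had a mean of 497 against 0.099 RPKM and was at 1 RPKM or more in 12 of 55 and 2 of 144 cells. Its highest values were 26735 RPKM on the Lcn2-positive and 12.6 RPKM on the Lcn2-negative side. Cell 158 held 97.8% of the Saa3 RPKM of its side. Saa2 and Saa1, the liver-type serum amyloids, lie near Saa3 on chromosome 7, from 46751833 to 46754313 and from 46740497 to 46743181. They had means of 88.7 and 55.0 RPKM, and cell 158 held 99.8% and 99.7% of these. Both were below 3 RPKM in every Lcn2-negative cell. Lrg1, a leucine-rich glycoprotein of serum, was at 1 RPKM or more in 3 Lcn2-positive cells and at 0 in all 144 others, a mean at least 881-fold higher against a floor of 3 reads over that side. Orm1, which encodes orosomucoid, was seen in cell 335 alone, at 1200 RPKM, and was listed at 0 in all Lcn2-negative cells. Chil1, a chitinase-like protein, was at 1101 RPKM in cell 335. Without cells 158 and 335 the same 9 genes had a median log2 ratio of 0, with 2 still past 2-fold, Saa3 at 3.49 and Lrg1 at 1.17. The Saa3 ratio then rested on cell 114, at 535 RPKM, which held a single Lcn2 read.

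Saa3 was found in a narrow range of sample numbers. It was detected in 23 of the 359 full-precision cells, all numbered between 98 and 171, and in no rounded column. Of the 24 cells within 12 numbers of cell 158, 13 held it. Of these 23 cells, 15 were eligible, 12 of them Lcn2-positive, 2 Lcn2-negative and 1 between the sides. The 4 cells over 100 RPKM were cells 158, 162, 131 and 114. Cell 131, at 604 RPKM of Saa3, had no Lcn2 read, so the 2 transcripts did not always occur together.

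Most complement and NF-kB target genes did not reach 2-fold over all Lcn2-positive cells. On the complement list 2 of the 6 genes that passed were at least 2-fold higher, where 3.81% of all genes were, and none was lower. The median log2 ratio was 0.15. Cfb, the factor B of the alternative pathway, on chromosome 17 from 34856374 to 34862514, had a mean of 91.7 against 4.45 RPKM, from 7 of 55 and 9 of 144 cells. Its 2 highest cells were cell 158, at 2968 RPKM, and cell 335, at 1904 RPKM, and the highest Lcn2-negative cell had 491 RPKM. Without both cells the log2 ratio of Cfb turned from 4.09 to -0.37. C3, the central complement component, had means of 5.78 and 2.25 RPKM. Of 13 NF-kB targets that passed, 2 were at least 2-fold higher, with a list median of 0.06. Steap4, a metalloreductase induced by cytokines, had a mean of 7.74 RPKM from 7 of 55 cells against 0.024 RPKM from 2 of 144. Relb, an NF-kB subunit, had means of 5.67 and 1.55 RPKM. Nfkbia, the inhibitor that NF-kB itself induces, had means of 51.3 and 47.2 RPKM, and Sod2, the mitochondrial superoxide dismutase, 36.6 and 35.7 RPKM. In the 13 cells at 100 RPKM or more of Lcn2, 9 of 17 NF-kB targets were at least 2-fold higher and none lower, with a median log2 ratio of 1.02. Of 7 complement genes in these cells 5 were higher and 1 lower, with a median of 1.29. With so few cells, 17.4% of all 7909 genes tested were higher and 11.3% lower. Without cells 158 and 335, 4 of 13 NF-kB targets were higher and 2 lower, with a median of 0.57, and of 4 complement genes none was higher and 2 were lower, with a median of -1.61. Over all genes 19.1% were higher and 13.2% lower in those 11 cells. Il4ra, the interleukin 4 receptor chain, was the 1 gene of 19 on the STAT3 and cytokine receptor list past 2-fold, at 5.99 against 0.577 RPKM. Cfb, C3, Steap4, Relb and Il4ra each passed the filter only through the Lcn2-positive side. They could only come out higher, so the counts over all Lcn2-positive cells say little of these lists. In the 13 cells at 100 RPKM or more, Relb, Steap4, Cfb and C3 again passed only through those cells. So did Tnfaip3, Icam1, Cxcl16 and Csf1, and the counts there say little of the lists either. Without cells 158 and 335 the mean of Steap4 was 3.53 RPKM, and the highest Relb value, 212 RPKM, was that of cell 12.

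Few interferon response genes passed the filter, 8 of 30, and their median log2 ratio was -0.83. Of these 8, none was at least 2-fold higher and 3 were at least 2-fold lower, where 4.22% of all genes were. Each of the 3 passed only through the Lcn2-negative side, so it could only come out lower, and the count says little of the list. Irf9, a subunit of the interferon-activated transcription factor, had means of 2.72 and 9.15 RPKM. Ddx58, the RNA sensor RIG-I, had 2.16 and 6.55 RPKM, and Ifi35 had 4.53 and 11.4 RPKM. For each of the 3 genes the ranges overlapped, with 0 on both sides, and detection was 11 of 55 and 42 of 144 cells for Irf9. Psmb8, an immunoproteasome subunit that interferon also induces, went the other way, at 36.1 against 14.3 RPKM. It was the 1 gene at least 2-fold higher of 15 on a list of MHC class I presentation genes, where 3.81% of all genes were. That list had a median log2 ratio of -0.24. With the highest cell of each side left out, none of the 15 was at least 2-fold higher.

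Stress genes of the unfolded protein response did not differ by 2-fold. None of the 24 genes that passed was past it in either direction, and the median log2 ratio was -0.24. Pdia4, a protein disulfide isomerase, was nearest to it, at 34.8 against 69.1 RPKM. Of 22 genes of the integrated stress response, which ATF4 drives, 2 were at least 2-fold higher, where 3.81% of all genes were. None was lower, and the median was 0.26. With the highest cell of each side left out, none of the 22 was at least 2-fold higher. Trib3, a pseudokinase induced by ATF4 and CHOP, had means of 18.5 and 7.80 RPKM, and Phgdh, the first enzyme of serine synthesis, 14.6 and 5.42 RPKM. Both were at 0 in most cells of either side.

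**Figure D4:**
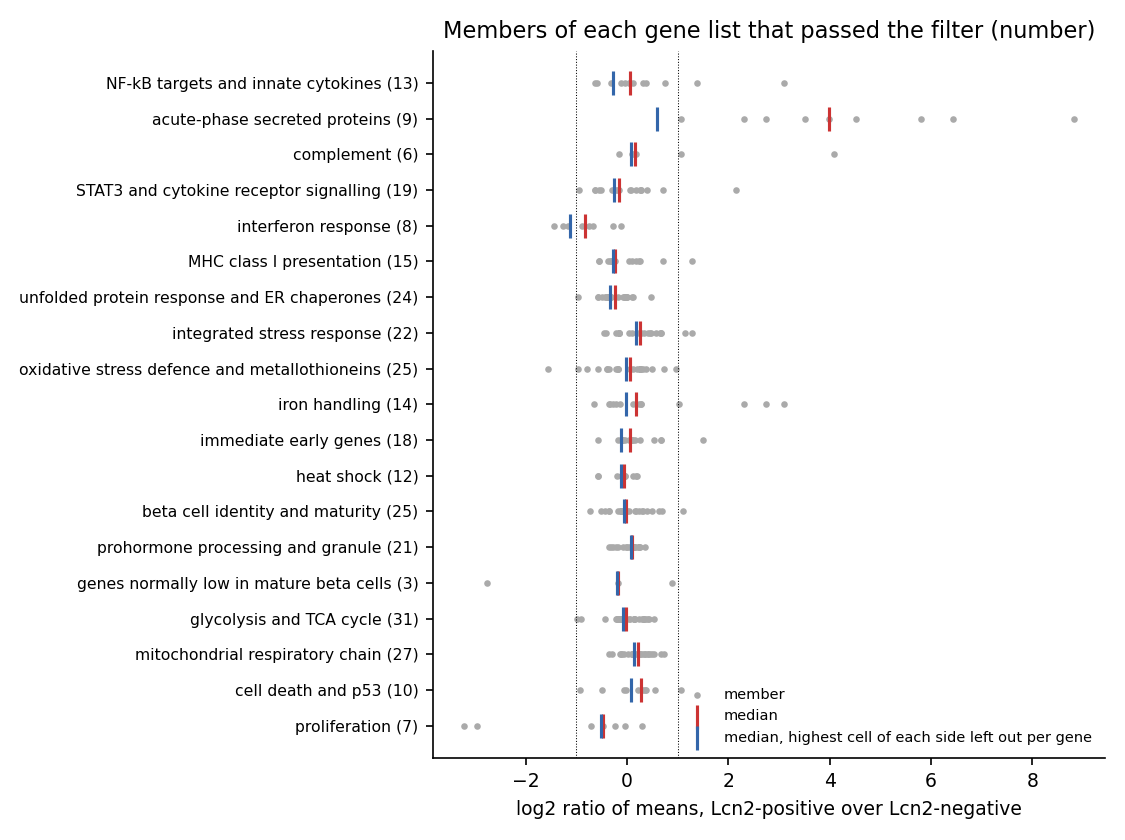
Log2 ratio of means (Lcn2-positive over Lcn2-negative) of every list member that passed the filter (grey), with the median (red) and the median with the highest cell of each side left out per gene (blue). Medians lie between -1 and 1 for 18 of 19 lists, and the acute-phase median falls from 3.99 to 0.59 without the highest cells.

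The integrated stress response genes had higher ratios in the 13 cells with the most Lcn2 than over all Lcn2-positive cells. In the 13 cells at 100 RPKM or more of Lcn2, 11 of 22 genes were at least 2-fold above the Lcn2-negative mean and none was 2-fold below. Of all genes tested, 17.4% were above and 11.3% below, with a median log2 ratio of 0.24 over all genes and 1.00 over this list. Ddit3, which encodes the transcription factor CHOP, had a mean of 167 RPKM in these 13 cells and 38.7 RPKM in the Lcn2-negative cells, with medians of 94.8 and 9.69 RPKM. Its gene overlaps Mars1 and Mbd6 in the annotation. Its mean was 23.1 RPKM in the 35 cells at 1 to 10 RPKM of Lcn2 and 28.3 RPKM in the 7 cells at 10 to 100 RPKM. Trib3 was at 67.1 RPKM in the 13 cells, at 0.496 RPKM in the 7, at 4.05 RPKM in the 35 and at 7.80 RPKM in the Lcn2-negative cells. It reached 20 RPKM in 7 of 13, 0 of 7, 3 of 35 and 17 of 144 cells. For both genes the bands under 100 RPKM of Lcn2 lay below the Lcn2-negative mean, so their levels did not follow the amount of Lcn2 step by step. Eif4ebp1, a repressor of cap-dependent translation, stood at 90.9 against 19.4 RPKM, and Sqstm1, the autophagy adaptor p62, at 329 against 156 RPKM. Nupr1, a stress-induced chromatin protein, had a median of 383 RPKM against 55.5 RPKM, with the highest values of 2318 and 6544 RPKM. The ranges of all these genes overlapped between the groups.

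The 13 cells with much Lcn2 did not look alike, and they are described here after their values were seen. Cells 158 and 335 both had Cfb, Lrg1, Cp and Serpina3n. The serum amyloid genes and Trf were high in cell 158 and at 0 in cell 335, while Orm1 and Chil1 were high in cell 335 and at 0 in cell 158. Neither had a Trib3 read, and Ddit3 was at 0 and 2.21 RPKM. Cell 69, with 9862 RPKM of Lcn2, had Trib3 at 55.7, Ddit3 at 566 and Nupr1 at 2318 RPKM, and Saa3, Cfb and Orm1 at 0. Cells 11, 152, 185, 85, 193 and 44 also had Trib3 at 50.7 RPKM or more and Ddit3 at 94.8 RPKM or more, with a summed acute-phase level of at most 11.8 RPKM. Cells 12, 153, 89 and 32 had little of either, with Trib3 at most 0.473 RPKM, Ddit3 at most 1.37 RPKM and an acute-phase sum of at most 15.5 RPKM. Without cells 158 and 335, 10 of 22 stress genes were at least 2-fold higher and 1 lower, with a list median of 0.66. Of all genes, 19.1% were higher and 13.2% lower. Cell 48, outside the comparison, also had Trib3 at 475, Ddit3 at 1207 and Nupr1 at 6708 RPKM, but Ins2 at 4973 RPKM against 168245 RPKM in cell 69. Outside the comparison, 11 cells had Lcn2 at 100 RPKM or more. Among them cells 46 and 340 had Trib3 at 114 and 86.6 RPKM, and all but these and cell 48 had at most 3.30 RPKM. Cells 48 and 69 both held Entpd2, an ectonucleotidase, at 755 and 515 RPKM, whose mean was 5.88 RPKM in Lcn2-negative cells.

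**Figure D5:**
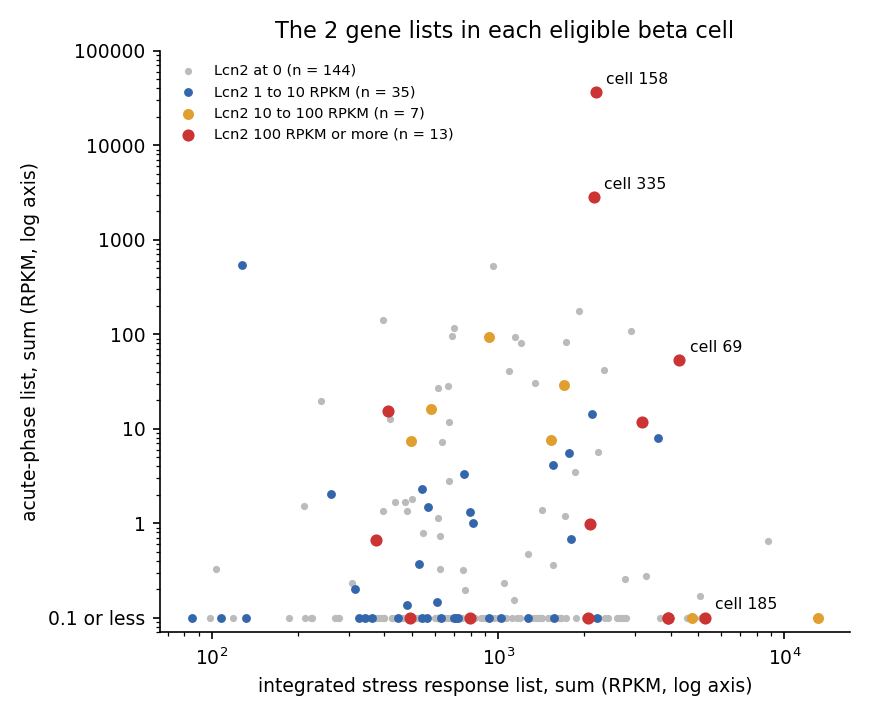
Summed RPKM of the acute-phase list against that of the integrated stress response list (log axes, acute-phase sums of 0.1 or less drawn at 0.1), 1 point per eligible beta cell, coloured by Lcn2. Cells 158 and 335 stand alone at the top, at 36294 and 2803 RPKM, and the other 11 cells at 100 RPKM or more of Lcn2 (red) have acute-phase sums of at most 53.0 RPKM.

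Genes of mature beta cells had close means on the 2 sides. Of 25 identity genes that passed, 1 was at least 2-fold higher, where 3.81% of all genes were, and none was lower. The median log2 ratio was -0.03. The 1 gene was Neurod1, a transcription factor of endocrine cells, with means of 59.7 and 27.4 RPKM, medians of 13.2 and 9.57 RPKM, and detection in 47 of 55 and 131 of 144 cells. Nkx6-1 had means of 16.4 and 9.83 RPKM, and Glp1r, the incretin receptor, 11.5 and 17.0 RPKM. None of 21 granule and prohormone genes, 31 glycolysis and citric acid cycle genes or 27 respiratory chain genes passed 2-fold in either direction, with medians of 0.09, -0.01 and 0.21. At 100 RPKM or more of Lcn2 the median of Ins2 was 146361 RPKM, against 258523 RPKM, and that of Ucn3, a marker of mature beta cells, 249 against 411 RPKM. The 13 cells lay within the range of the Lcn2-negative cells for both genes, except that the lowest Ucn3 value, 1.38 RPKM, was just under theirs, 1.43 RPKM. Among iron genes, Fth1 and Ftl1, which encode ferritin chains, had means of 664 against 611 RPKM and 3312 against 2741 RPKM. Slc22a17, a receptor described for lipocalin 2, had means of 15.5 and 7.09 RPKM, a log2 ratio of 1.03, and was detected in 21 of 55 and 61 of 144 cells.

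Of 7 proliferation genes that passed, 2 were at least 2-fold lower, where 4.22% of all genes were, and none higher. Both of them, Stmn1 and Ccnb1, passed only through the Lcn2-negative side, as did Ldha. Such genes could only come out lower, so the count says little of the list. Stmn1, a microtubule regulator, had means of 0.849 and 16.3 RPKM from 2 of 55 and 12 of 144 cells. Ccnb1, the mitotic cyclin B1, was at 0 in all 55 Lcn2-positive cells and was detected in 3 of the 144. Ldha, the lactate dehydrogenase chain that mature beta cells keep low, had means of 0.668 and 10.3 RPKM from 1 of 55 and 9 of 144 cells. Cdkn1a, a p53 target that halts the cell cycle, had means of 24.4 and 11.2 RPKM.

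Marker lists of other cell types were set side by side as well. All 5 stellate and fibroblast markers that passed were at least 2-fold lower on the Lcn2-positive side, where 4.22% of all genes were. Each passed the filter only through the Lcn2-negative side, so it had to be lower, and the count is no result. The list's sum ranged from 0 to 5.46 RPKM in those cells and from 0 to 9075 RPKM in the Lcn2-negative cells, with medians of 0 and 0.350 RPKM. Rgs5, a pericyte gene, reached 9058 RPKM in a Lcn2-negative cell, and Sparc, a matrix protein, 2024 RPKM. S100a8 and S100a9, the calgranulins of neutrophils, lie on chromosome 3, from 90669071 to 90670034 and from 90692630 to 90695721. They were at 8580 and 10785 RPKM in cell 335 and listed at 0 in all Lcn2-negative cells. The other 12 of 14 neutrophil markers, with Ngp, Camp, Ltf, Elane, Mpo and Ly6g among them, were at 0 in cell 335, as were Ptprc and Tyrobp. The sum of the ductal list had medians of 226 and 222 RPKM and highest values of 5121 and 6577 RPKM. In cells 158 and 335 Krt19, Sox9, Cftr and Muc1 were at 0. Krt7 was at 339 and 178 RPKM there, and Spp1 at 318 and 4663 RPKM. Krt8 was at 44.5 and 73.7 RPKM, and Krt18 at 164 and 206 RPKM. The highest Lcn2-negative values lay above all of these, at 375 RPKM for Krt7, 6346 for Spp1, 326 for Krt8 and 335 for Krt18. The part that other cells' RNA has in these levels was not tested.

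The 12 ranked genes highest by ratio had log2 ratios of 1.60 to 2.60. Among them were Abcb9, Ccar2, Ndufaf1, Plekha6, Dusp26, Tifa, Pes1, Tmem98, Uck1, Zscan21 and Tmem30b. Abcb9, a lysosomal peptide transporter, had means of 16.7 and 1.92 RPKM, but 1 cell held 78.0% of the former. Ccar2, a regulator of p53 and deacetylases, had 18.6 and 2.75 RPKM, with 65.6% in 1 cell. Ndufaf1, an assembly factor of respiratory complex I, had 20.0 and 4.19 RPKM from 20 and 25 cells, with 23.8% in the highest. With the highest cell of each side left out, 8 of these 12 stayed past 2-fold. All but Plekha6, Tmem98 and Uck1 had Lcn2-negative means under 5 RPKM and so passed the filter only through the Lcn2-positive side. The genes were also ranked on this ratio, so staying past 2-fold says little of them.

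The 12 lowest had log2 ratios of -2.43 to -1.57, and all 12 stayed past 2-fold without the highest cells. That step takes a larger part of the smaller, Lcn2-positive side. The 12 genes were Slc9a3r1, Zfp946, Slc30a6, Pyy, Pigu, Ccdc163, Trappc3, Cald1, Cdc23, Zfp120, Sult1d1 and Sccpdh. All but Pyy and Pigu had Lcn2-positive means under 5 RPKM and so passed the filter only through the Lcn2-negative side. Staying past 2-fold says little of these genes too. Slc9a3r1, the scaffold NHERF1, had means of 1.18 and 10.7 RPKM from 8 of 55 and 44 of 144 cells. Slc30a6, a zinc transporter of the Golgi, had 2.64 and 15.4 RPKM. Pyy, the peptide YY of islet cells, had 68.6 and 308 RPKM, but 1 Lcn2-negative cell at 31492 RPKM held 70.9% of its side, and the medians ran the other way, at 17.5 and 10.6 RPKM. As a difference of log means none of these 24 genes reached 2-fold.

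In the share of cells at 1 RPKM or more, the 8 genes furthest higher were Reep2, Trim28, Pmpcb, Tmem230, Crtc3, Vps11, Hs3st6 and Marchf8, by 23.4 to 27.6 percentage points. Reep2, a shaper of endoplasmic reticulum tubules, was detected in 49.1% of Lcn2-positive and 21.5% of Lcn2-negative cells. Trim28, a corepressor of zinc finger proteins, was detected in 80.0% and 52.8%, and Pmpcb, a mitochondrial processing peptidase, in 90.9% and 63.9%. Hs3st6, a heparan sulfate sulfotransferase, was detected in 49.1% and 25.0%, with means of 12.5 and 4.75 RPKM. The 8 furthest lower were Smim26, Cox20, Sde2, Nudt7, Chtop, Nsmce2, Muc4 and Kcnk16, by 21.1 to 25.1 points. Nudt7, a peroxisomal coenzyme A hydrolase, was detected in 38.2% and 59.7% of cells, and Kcnk16, the potassium channel TALK-1 of beta cells, in 25.5% and 46.5%. Of the 40 genes ranked by ratio or share, 14 overlap another annotated gene, and reads of such a pair may not have been told apart.

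Genes past 2-fold both by the ratio of means and by the mean of logs were few, and this set was picked after the values were seen. The 6 higher ones were Mapre3, Snph, Gm6599, Axin1, Hs3st6 and Snord13, and the 7 lower ones Eif3l, Tuba1b, Aamp, Nudt7, Plp2, Crybb3 and Gm13420. Axin1, a scaffold of the beta-catenin destruction complex, had means of 12.9 and 4.33 RPKM. Tuba1b, an alpha-tubulin, had 25.9 and 53.5 RPKM, with medians of 8.59 and 23.6 RPKM.

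Over the 201 eligible beta cells, the genes whose ranks followed Lcn2 most closely did so weakly. Among 9878 genes in 10% or more of the cells, the 8 highest Spearman correlations ran from 0.26 to 0.32. They belonged to Rpl37a, Reep2, Rpsa-ps1, Rpl31-ps13, Rpl3-ps2, Rpsa-ps4, Rpl30-ps9 and Trim28. Of these, 6 are ribosomal protein genes or their processed copies, whose reads can be split between near-identical sequences. All points come from the same libraries, with 144 of 201 tied at 0 for Lcn2. Saa3, below the 10% limit with 15 cells, had a correlation of 0.38, Cfb 0.27, Trib3 0.08, Nupr1 0.03 and Ddit3 -0.04.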

How the data were processed

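The authors deposited 1 table of RPKM values for 44448 Entrez gene IDs in 622 single cells. The submitters' processing notes name CASAVA 1.8.2, FastQC and the GRCm38 (mm10) genome. The aligner, the counting and its use of strand were not given in the sources used here. RefSeq (GRCm38.p6) gave symbols for 39725 IDs. The members and gene lists were chosen with earlier results of these data known.

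From the RPKM values, per-side means were compared as log2(mean + 1), with a pseudocount of 1, for genes at a mean of at least 5 RPKM on either side. The 7 genes that chose the cells (Lcn2, Ins1, Ins2, Gcg, Sst, Ppy and Tyrobp) were left out. A gene was counted at 2-fold. Cells are not replicates, so no test was run. Shares carry exact Clopper-Pearson intervals, and a count of 0 allows up to 3 cells of the total. In the full-precision columns the values of a gene are whole multiples of 1 read (within 0.05 for 100% of values under 100 reads), so reads per cell were recovered with the lengths of 13 mitochondrial genes, giving depth, read numbers and thinning by binomial expectation. No depth could be set for 1 cell. The recovery and the ratios were checked on simulated data. Doublets were not called.

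Named genes had a symbol other than a predicted one, a mean of at least 10 RPKM and detection in 25% or more of that side's cells, taken on the higher side, and were the 12 highest and 12 lowest ratios, of which 1 is not reported here. The 8 largest differences in detection each way (mean of at least 5 RPKM) and up to 4 members of a list each way were added. Alternatives changed the pseudocount, filter, scale, Lcn2 threshold, insulin limit, matching and single cells. Python 3.11.15, numpy 2.4.6, pandas 2.3.3, scipy 1.17.1 and matplotlib 3.10.9 were used.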

Additional observations from a re-analysis of the deposited data

Results flagged for a closer look

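Lcn2 was present in cells that the comparison did not use. Among full-precision cells outside it, 21.5% held Lcn2 at 1 RPKM or more, a signal above the limit that a count of 0 would allow. Cell 162, outside the comparison for its glucagon reads, held 3269 RPKM of Lcn2, while the nearly identical column of cell 170 held none. No group of 4 to 10 samples was available to look for a sample far from the rest, since all cells count as 1 sample.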

How the results depend on the processing

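The counts of genes at 2-fold, 283 higher and 314 lower, depended on most choices. They were 27 and 19 with a pseudocount of 10, 552 and 843 with no filter on the mean, 57 and 34 with a mean of at least 20 RPKM, and 10 and 29 as differences of log means. With Lcn2 at 10 RPKM or more they were 1066 and 672, at 100 RPKM or more 1373 and 893, with at least 4 Lcn2 reads 706 and 623, and with a stricter insulin limit 517 and 601, all from fewer cells. Matching negative cells in detected genes gave 445 higher genes, and leaving out the highest cells 84 higher genes. Without cells over 25% mitochondrial RPKM, without cells 158 and 335, and with negative cells nearest in sample number, both counts were within 1.5 times. The genes themselves changed more. With the 55 negative cells nearest in sample number, 194 of the 283 higher and 185 of the 314 lower genes were called again. Leaving out cells 158 and 335, the nearest negative cells, the 4-read limit and leaving out near-identical columns were added after seeing the data.

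The Lcn2 share of 27.4% was 9.95% at 10 RPKM or more, 6.47% at 100 RPKM or more, 19.5% at 250000 reads and 0% in the rounded columns, where no gene comparison could be run for lack of Lcn2-positive cells. The other settings kept it within its interval.

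Over 76 named genes and 14 alternatives, direction reversed in 26 cases, and 185 called ratios came under 2-fold. As a difference of log means, Pyy was at 0.54 and Rbp4 at 0.11. Abcb9 was at -0.76 with Lcn2 at 10 RPKM or more, -0.81 at 100 RPKM or more and -0.86 with at least 4 reads. Under the stricter insulin limit, Pyy was at 2.13, Serpina3n at -1.25, Trf at -0.96, Chil1 at -0.89, C3 at -0.19, Cfb at -1.02, Cdkn1a at -0.15 and Col1a2 at 0.020. Matched in detected genes, Pyy was at 0.29, Serpina3n at -0.11, Col1a2 at 0.19 and Rbp4 at 0.55. Nearest in sample number, Col1a2 was at 0.15. Without the highest cells Chil1 was at -0.61, and without cells over 25% mitochondrial Plekha6 was at -0.13. Without cells 158 and 335, Serpina3n was at -1.46, Cp at -0.24, Trf at -0.016, Chil1 at -0.86, C3 at -0.42 and Cfb at -0.37. List medians moved by over 1.5 times in 18 cases and by less in 248. The cause of these changes was not tested, apart from settings that leave out cells by construction.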
